A study of Mus musculus with 8 samples.

Results

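The Wnt genes of cultured mouse keratinocytes (KCs) were examined as a family of 51 protein-coding genes among the 41457 genes of the deposited tables. They were chosen by name alone: 19 Wnt, 10 frizzled (Fzd), 4 Sfrp, 5 Dkk (with Dkkl1) and 4 R-spondin (Rspo) genes, and 9 single genes, namely Ctnnb1, Axin2, Lef1, Tcf7, Lrp5, Lrp6, Nkd1, Nkd2 and Ror2. KCs are the epithelial cells of the epidermis. Here they came from tail epidermis of adult C57BL/6 mice (C57BL/6J in the study's text) of Wildtype genotype and were kept, without treatment, in a serum-free medium with little calcium. Poly(A) RNA was sequenced after 1 week of culture in 4 samples and after 3 weeks in 4 samples. The strain, genotype, source and medium were common to both groups, and the groups were set apart by the time in culture. The cells were split near confluence, so time in culture and number of passages cannot be told apart. The labels describe 4 independent experiments. Batches of KCs were shared between the times according to the study, but which samples came from the same batch is not given in the sources used here. The main test was unpaired. The number of mice behind a sample is not given either, so the p-values measure the spread between these samples.

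Wnt proteins are secreted, lipid-modified signals that bind frizzled receptors. With the co-receptors Lrp5 or Lrp6 they stop the breakdown of beta-catenin, which then enters the nucleus and acts there with Tcf and Lef factors, whereas other Wnts act through Ror2 and frizzleds without beta-catenin. Sfrp and Dkk proteins work outside the cell and mostly oppose Wnt signals, and R-spondins strengthen them. In skin the pathway is known for hair follicle formation and the renewal of epidermal and follicle stem cells.

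After 3 weeks the KCs contained about 2.7-fold more Wnt7b and Wnt9a RNA and more Wnt5a, Wnt11, Dkk3 and Sfrp2 RNA than after 1 week. RNA of Wnt3 was down to 1 read in 4 samples, and Sfrp1, Nkd2 and Tcf7 were lower. Reads of R-spondins, Axin2 and Lef1 were few or absent at both times. Of the 51 genes, 29 had enough reads to be tested and 17 of these passed an adjusted p-value of 0.05 in edgeR's quasi-likelihood test with Benjamini-Hochberg adjustment, 9 of them higher and 8 lower after 3 weeks. Over all 12590 genes tested, 32.8% passed, 15.7% higher and 17.0% lower, so a change with time in culture was common in this comparison. Among the 17, Wnt3, Nkd2, Fzd4, Wnt5b and Sfrp2 had enough reads through the samples of 1 time alone. None of these was tested when at least 10 reads in every sample were required. The median log2 fold change, always 3 weeks over 1 week, was 0.19 for the 29 genes and 0.03 for all genes tested.

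Several of the Wnt genes lie next to each other in the genome, and the data of these neighbours differed. Wnt9b and Wnt3 stand back to back on chromosome 11 with 24.3 kb between them, as do Wnt3a and Wnt9a with 16.2 kb between them, on the same chromosome. Wnt10b and Wnt1 are a further divergent pair on chromosome 15 at 11.7 kb, and Wnt6 lies 6.19 kb before Wnt10a on the same strand of chromosome 1. The promoters of the first 4 are shown because the genes of each pair were read so differently in KCs. Each stretch covers the bases from 150 to 31 before the RefSeq start on GRCm38, 5′ to 3′ on the strand of the gene, with CpG in capitals. None of the 4 overlaps a gene of the GENCODE M21 annotation.
Wnt9b, chr11:103749852-103749971, minus strand: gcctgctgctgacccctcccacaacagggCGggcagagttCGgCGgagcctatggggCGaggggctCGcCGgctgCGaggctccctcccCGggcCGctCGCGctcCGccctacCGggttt
Wnt3, chr11:103774025-103774144, plus strand: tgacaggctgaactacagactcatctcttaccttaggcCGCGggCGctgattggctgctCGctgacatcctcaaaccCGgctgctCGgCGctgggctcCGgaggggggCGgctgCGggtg
Wnt3a, chr11:59290782-59290901, minus strand: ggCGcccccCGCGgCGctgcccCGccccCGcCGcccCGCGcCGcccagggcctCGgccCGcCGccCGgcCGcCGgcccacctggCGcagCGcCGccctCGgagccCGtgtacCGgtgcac
Wnt9a, chr11:59306780-59306899, plus strand: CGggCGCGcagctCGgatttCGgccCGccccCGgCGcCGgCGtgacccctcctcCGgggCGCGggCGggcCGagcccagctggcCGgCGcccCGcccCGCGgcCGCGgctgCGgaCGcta
In the 250 bases before the start, Wnt9b and Wnt3 had 22 CpG each, a number reached by 14.8% of all 32851 promoters of the RefSeq table, and Wnt3a had 41 and Wnt9a had 48. At least 41 CpG were found in 1.09% of promoters and at least 48 in 0.186%, against a median of 6. Wnt9b without a read and Wnt3 with reads had the same number, and Wnt9a had more than the little-read Wnt3a. A relation between CpG number and reads was not tested.

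A promoter was in the RefSeq table for 35 of the 51 genes, some with more than 1 start. The letters of the Tcf/Lef core, searched on both strands as CTTTG followed by A or T at each of the next 2 bases, from 250 bases before to 50 bases after the start, occurred in 6 of the 43 promoters of these genes (14.0%) and in 16.9% of all promoters. The 6 genes were Fzd7, Lef1, Wnt5b, Wnt11, Wnt3 and Dkk1. Wnt11 and Wnt5b are shown as a gene that rose and a gene that fell, each with these letters, in capitals, at 1 of its listed starts. Their other listed starts did not hold them. Which start was used in the KCs, and any part of these letters in the changes, was not tested.
Wnt11, chr7:98834962-98835081, plus strand: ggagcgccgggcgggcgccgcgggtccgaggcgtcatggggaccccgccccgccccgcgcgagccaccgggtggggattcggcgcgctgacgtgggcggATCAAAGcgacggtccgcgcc
Wnt5b, chr6:119449417-119449536, minus strand: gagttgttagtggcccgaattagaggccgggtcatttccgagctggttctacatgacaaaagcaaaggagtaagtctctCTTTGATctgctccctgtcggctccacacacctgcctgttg
The letters began 51 bases before the start of Wnt11 and 71 bases before the innermost of the listed starts of Wnt5b. This Wnt5b stretch lies in an intron of the longer Wnt5b transcripts. A match of letters is no evidence of binding.

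The libraries held between 13896807 and 20026084 exon reads at 1 week and between 14096649 and 18127283 at 3 weeks. All 10 markers of KCs, such as Krt5 and Krt14, were read in every sample, and their summed RPKM (exon reads corrected for exon length and for the mapped reads of each library) was 12897 to 15212 at 1 week and 8242 to 9622 at 3 weeks. Suprabasal markers summed to 28.8 to 204 RPKM at 1 week, highest in replicates 3 and 4, and to 22.2 to 69.3 RPKM at 3 weeks. Sbsn alone gave 19.4 to 97.9 and 17.2 to 54.5 RPKM, and Krtdap 4.25 to 76.0 and 0.711 to 2.15 RPKM. Krt1 and Krt10 were at most 1.55 and 1.66 RPKM in any sample, and Ivl was highest in replicate 4 of 3 weeks (10.3 RPKM). Of other cell types, 10 fibroblast markers summed to 4.47 to 8.08 and 5.95 to 15.7 RPKM at 1 and 3 weeks (Postn alone to 0.169 to 0.448 and 2.50 to 9.58, while Pdgfrb and Twist2 were lower at 3 weeks in all samples), 8 melanocyte markers to 3.64 to 21.6 and 1.68 to 6.10, 6 endothelial markers to 0.411 to 0.602 and 0.275 to 0.512, and 7 immune markers to 1.28 to 4.22 and 1.66 to 3.82, with Cd207 at 0 in all samples. The 5 smooth muscle genes summed to 173 to 448 RPKM at 1 week and 1263 to 3203 RPKM at 3 weeks, nearly all of it Acta2 and Tagln. Cnn1 was higher at 3 weeks too, Myh11 was higher in 3 samples and at 0.0320 RPKM in replicate 3, and Des was lower in 3 of 4 samples (0.111 to 0.154 RPKM at 1 week, 0.0429 to 0.162 RPKM at 3 weeks). Hair follicle stem cell markers summed to 56.0 to 78.7 RPKM at 1 week and 19.1 to 69.8 RPKM at 3 weeks. Most of this was Sox9, with 47.8 to 70.6 and 14.7 to 59.7 RPKM. Lgr5 was at most 0.068 RPKM in any sample. Cd34 was lower at 3 weeks in all samples, and Krt15, Lhx2, Tcf7l1 and Nfatc1 overlapped between the times. The part of these cell types in the Wnt values was not tested. In such bulk RNA, fewer cells of a type and less RNA per cell cannot be told apart. Replicates 3 and 4 of 3 weeks were the least alike pair, with a Pearson correlation of 0.879 over log2 CPM of genes, against at least 0.930 for the other pairs within a time.

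Of the 19 Wnt ligands, 10 were tested, 4 rose and 3 fell, against 15.7% higher and 17.0% lower among all genes tested. Their summed level was 79.4 to 94.7 RPKM in the samples of 1 week and 90.4 to 114 RPKM in those of 3 weeks, so that the sums overlapped while the ligands that made them up differed. Wnt10a was the leading ligand at 1 week with 43.2% ± 0.66 (SD, n = 4) of the sum. After 3 weeks it held 20.9% ± 3.04, whereas Wnt9a held 26.5% ± 3.42 and Wnt7b 26.3% ± 3.30, each up from about 13% (13.2% ± 1.67 and 13.0% ± 1.53).

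**Figure D1:**
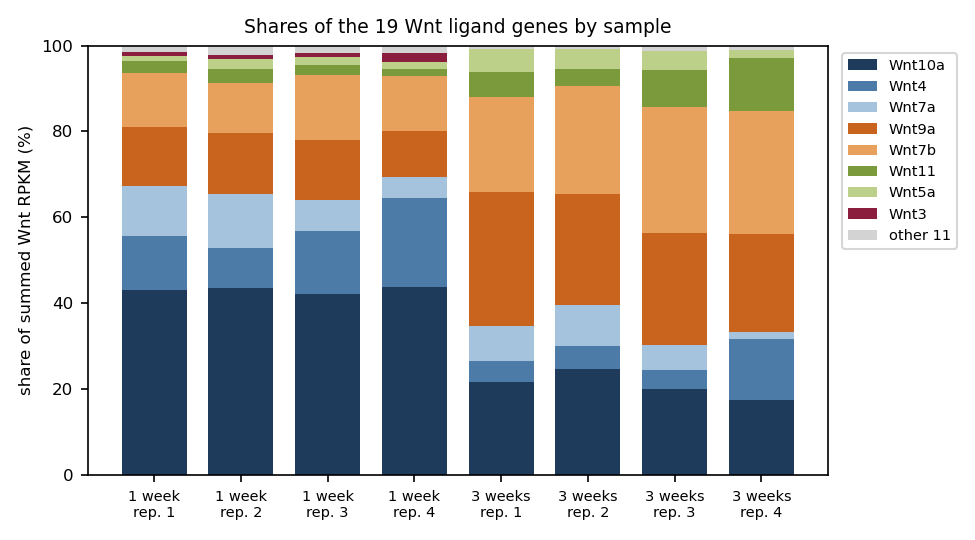
Share of each Wnt ligand in the summed RPKM of all 19 Wnt genes (vertical axis, percent), with 1 bar per sample. Wnt10a took 42.2% to 43.8% at 1 week and 17.4% to 24.6% at 3 weeks, while Wnt9a and Wnt7b grew in all 4 samples of 3 weeks.

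Wnt7b (chr15:85535437-85582473), a Wnt of epidermal and other epithelia that can act through beta-catenin, was read at 10.6, 9.22, 14.4 and 10.7 RPKM in replicates 1 to 4 of 1 week and at 23.2, 28.8, 26.6 and 29.9 RPKM in those of 3 weeks. All samples of 3 weeks lay above all samples of 1 week. The log2 fold change was 1.44 ± 0.16 (SE, edgeR adjusted p = 0.000473), or 2.71-fold. The gene overlaps AU022754 on the other strand, and with uniquely mapped reads the log2 fold change was 1.43.

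Wnt9a (chr11:59306928-59333552), known from joint and limb development, was close to Wnt7b in level and in change. It was read at 11.8, 11.3, 13.2 and 9.01 RPKM at 1 week and at 32.5, 29.4, 23.7 and 23.9 RPKM at 3 weeks. The groups were far apart, and the log2 fold change was 1.43 ± 0.16 (SE, edgeR adjusted p = 0.000433), or 2.70-fold. Its neighbour Wnt3a, a classical activator of beta-catenin, had only 6, 3, 10 and 21 reads at 1 week and 1, 1, 3 and 0 reads at 3 weeks and was not tested.

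Wnt11 (chr7:98835112-98855195), which mostly acts without beta-catenin, was read at 2.30, 2.49, 2.16 and 1.52 RPKM at 1 week and at 6.17, 4.47, 7.65 and 13.0 RPKM at 3 weeks. Replicate 4 of 3 weeks was the highest, and the lowest sample of 3 weeks was still above every sample of 1 week. On the log2 scale it rose by 2.05 ± 0.32 (SE, edgeR adjusted p = 0.00188), or 4.13-fold, and without that replicate it was 1.73.

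Wnt5a (chr14:28504750-28527448), the best known Wnt of the Ror2 route, was read at 1.05, 1.92, 1.77 and 1.21 RPKM at 1 week and at 5.62, 5.27, 3.95 and 1.99 RPKM at 3 weeks. Here replicate 4 was the lowest sample of 3 weeks and lay just above the highest sample of 1 week. This was a log2 fold change of 1.67 ± 0.33 (SE, edgeR adjusted p = 0.00549), or 3.18-fold. Wnt5a overlaps Gm2670 on the other strand, and whether the reads were counted by strand is not given in the sources used here.

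Wnt3 (chr11:103774150-103817957), a beta-catenin activator of hair follicle epithelium, was nearly lost. The samples of 1 week held 51, 42, 41 and 100 reads on its exons and those of 3 weeks 0, 0, 1 and 0 reads. This corresponded to 1.08 ± 0.524 RPKM (SD, n = 4) at 1 week, when Wnt3 ranked well below the leading ligands. Per exon read of the libraries there were 216 times as many Wnt3 reads at 1 week, with an exact 95% counting interval of 38.4 to 8570 (counting error only), and the edgeR adjusted p was 0.00039. Wnt3 passed the filter on low counts through the 1 week samples alone. No reads were counted on its neighbour Wnt9b in any sample, where 3 reads would have been 0.0322 to 0.0463 RPKM.

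Wnt10a (chr1:74791516-74804179), a Wnt of hair, tooth and epidermis, fell but stayed high. Its values were 36.6, 34.5, 40.0 and 36.8 RPKM at 1 week and 22.7, 28.1, 18.03 and 18.2 RPKM at 3 weeks. The groups did not overlap, and the log2 fold change was -0.61 ± 0.15 (SE, edgeR adjusted p = 0.0135). Its neighbour Wnt6 had 12, 8, 7 and 15 reads at 1 week and 4, 1, 0 and 2 reads at 3 weeks, too few for the test.

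Wnt5b (chr6:119432531-119544347), a close relative of Wnt5a, went the other way than Wnt5a. It had 27, 54, 23 and 19 reads at 1 week and 6, 4, 5 and 12 reads at 3 weeks, or 0.633 ± 0.25 and 0.159 ± 0.1 RPKM (SD, n = 4). The log2 fold change was -1.85 ± 0.44 (SE, edgeR adjusted p = 0.0127). This call was lost (adjusted p = 0.0912) when 3 samples per time were paired by the numbers in the names of the deposited tables. Wnt5b passed the filter on low counts through the 1 week samples alone, and it overlaps Fbxl14 on the other strand.

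For 3 ligands the test was not passed. Wnt4, which is known from kidney and reproductive tract development, was read at 10.7, 7.44, 13.9 and 17.4 RPKM at 1 week and at 4.90, 6.09, 4.06 and 14.9 RPKM at 3 weeks. Replicate 4 of 3 weeks stood within the 1 week samples and the other 3 below all of them. The log2 fold change was -0.58 (edgeR adjusted p = 0.304), and without that replicate it was -1.12 (adjusted p = 0.0149). Wnt7a, a Wnt of limb and skin epithelium, lay between 4.18 and 10.04 RPKM at 1 week and between 1.78 and 10.97 RPKM at 3 weeks. The spread within each time exceeded the difference, and the log2 fold change was -0.05 (edgeR adjusted p = 0.954). Wnt10b, the paralog of Wnt10a, lay between 0.133 and 0.514 RPKM and then between 0.489 and 0.913 RPKM, a narrow overlap, and its log2 fold change was 1.20 (edgeR adjusted p = 0.059).

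By level, Wnt10a stood above all other ligands at 1 week. Wnt4, Wnt9a, Wnt7b and Wnt7a followed with means of 12.4, 11.3, 11.2 and 7.68 RPKM, and the values of each of these overlapped those of the next. Wnt11, Wnt5a, Wnt3, Wnt5b and Wnt10b came below with means of 2.12, 1.49, 1.08, 0.633 and 0.350 RPKM. At 3 weeks Wnt9a and Wnt7b led with 27.4 ± 4.32 and 27.1 ± 2.97 RPKM (SD, n = 4), and their values overlapped each other and, at 23.2 to 32.5 RPKM, those of Wnt10a at 18.03 to 28.1 RPKM. Wnt11, with a mean of 7.82 RPKM, had moved among Wnt4 and Wnt7a, which had means of 7.50 and 6.66 RPKM.

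**Figure D2:**
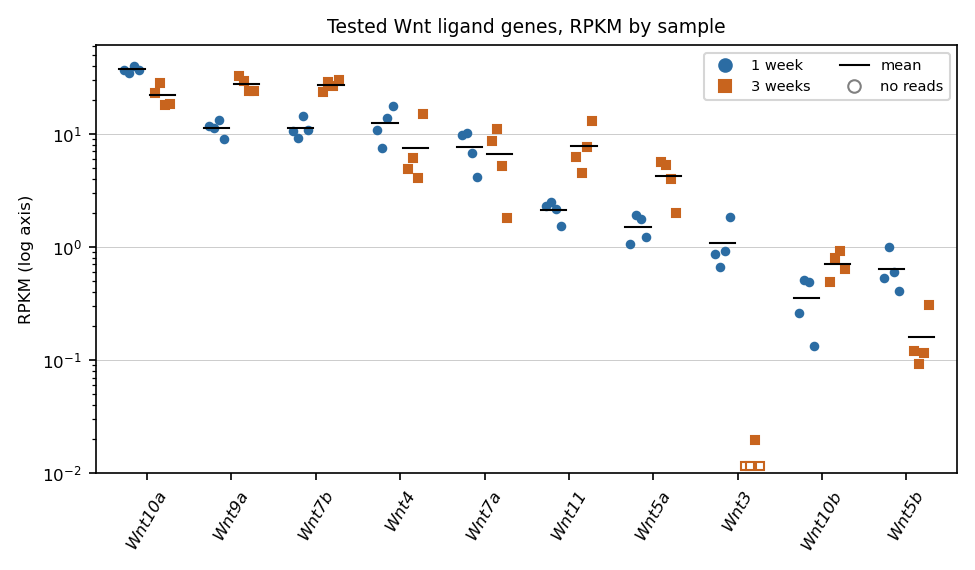
RPKM (vertical axis, log scale) of the 10 tested Wnt ligands in each sample, circles for 1 week and squares for 3 weeks, with the mean as a line. Open symbols at the lower edge are samples without reads, which occur for Wnt3 at 3 weeks in 3 of 4 samples.

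The remaining 9 ligands had too few reads. Besides Wnt3a and Wnt6 with at most 21 and 15 reads, Wnt2 had at most 4, Wnt16 at most 3, Wnt2b at most 2, and Wnt1 and Wnt8a at most 1 read in any sample. Wnt8b and Wnt9b had none. These 7 genes were at or below the level of a few reads throughout, so no difference between the times was detectable at this depth. The R-spondins, which act through Lgr receptors, were not tested either, though Rspo4 reached more reads than these 7 genes. Rspo4 had 9, 22, 5 and 11 reads at 1 week and 3, 8, 2 and 2 at 3 weeks, Rspo1 and Rspo3 had at most 4 and 2 reads in a sample, and Rspo2 had 1 read in 1 sample of each time.

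Of 13 receptor genes, 12 were tested, 2 rose, 2 fell and 8 did not pass, against the 32.8% of all tested genes that passed. The 10 frizzleds summed to 43.9 to 57.5 RPKM at 1 week and 46.4 to 57.4 RPKM at 3 weeks. Fzd6, a frizzled known from hair patterning, made up 32.4% ± 3.54 (SD, n = 4) of this sum at 1 week and 32.9% ± 1.76 at 3 weeks.

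Fzd1 and Fzd8, both receptors that can pass on beta-catenin signals, rose modestly. Fzd1 (chr5:4753839-4758035) was read at 5.78, 6.64, 6.82 and 5.16 RPKM at 1 week and at 7.66, 8.36, 7.54 and 10.1 RPKM at 3 weeks. Its log2 fold change was 0.62 ± 0.14 (SE, edgeR adjusted p = 0.00819). Fzd8 was read at 1.28, 1.31, 1.54 and 1.30 RPKM and at 1.99, 1.85, 1.67 and 2.15 RPKM, and its log2 fold change was 0.66 ± 0.14 (SE, edgeR adjusted p = 0.00635). In both genes the lowest sample of 3 weeks was above the highest of 1 week by a small margin. Neither call held when 3 samples per time were paired by the numbers in the table names (adjusted p = 0.0639 and 0.0812).

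Fzd10 and Fzd4 fell from low levels. Fzd10 (chr5:128600844-128604093) had 86, 62, 79 and 123 reads at 1 week and 17, 28, 34 and 24 at 3 weeks. Its log2 fold change was -1.49 ± 0.35 (SE, edgeR adjusted p = 0.0123). Fzd4 (chr7:89404355-89413134), a receptor of vessel growth in the retina, had 24, 56, 23 and 29 reads and then 9, 8, 8 and 10. Its log2 fold change was -1.59 ± 0.32 (SE, edgeR adjusted p = 0.00575), and the same pairing by table names gave an adjusted p of 0.0527. Fzd4 passed the filter on low counts through the 1 week samples alone. The values of the 2 times did not overlap in either gene. Fzd9 had 19, 11, 4 and 9 reads at 1 week and 3, 5, 2 and 1 at 3 weeks and was not tested.

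The other 5 frizzleds did not pass. Fzd6 had means of 16.4 ± 3.19 and 17.8 ± 1.88 RPKM (SD, n = 4) at 1 and 3 weeks, Fzd7 of 8.55 ± 0.683 and 7.54 ± 1.03, Fzd5 of 7.93 ± 2.07 and 8.13 ± 2.19, and Fzd2 of 7.18 ± 0.991 and 8.73 ± 1.25. The less abundant Fzd3 had 0.776 ± 0.147 and 1.00 ± 0.311. Their log2 fold changes lay between -0.03 for Fzd7 and 0.54 for Fzd3, with edgeR adjusted p-values from 0.0594 (Fzd2) to 0.889 (Fzd7). Without replicate 4 of 3 weeks Fzd2 and Fzd3 passed, with log2 fold changes of 0.56 and 0.74 (edgeR adjusted p = 0.0117 and 0.0105), and Fzd2 also passed in DESeq2 (adjusted p = 0.0297). The co-receptors Lrp5 and Lrp6 had log2 fold changes of 0.12 and 0.23 (edgeR adjusted p = 0.770 and 0.636). In both, replicate 3 was the lowest and replicate 4 the highest sample of 3 weeks, with 3.14 and 9.42 RPKM for Lrp5 and 1.58 and 6.26 RPKM for Lrp6, so that the spread within 3 weeks spanned the range of 1 week.

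Ror2, the receptor tyrosine kinase through which Wnt5a acts, was read at 3.49, 4.10, 4.12 and 4.25 RPKM at 1 week and at 3.07, 2.47, 1.54 and 2.94 RPKM at 3 weeks. The groups did not overlap, yet the test was narrowly missed (log2 fold change -0.52 ± 0.19 SE, edgeR adjusted p = 0.0597). It was passed in 5 alternatives, among them without replicate 4 of 3 weeks (-0.59, edgeR adjusted p = 0.0483). Among the tested Wnt genes 18 did not overlap between the times, namely all 17 that passed and Ror2, against 37.0% of all genes tested.

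**Figure D3:**
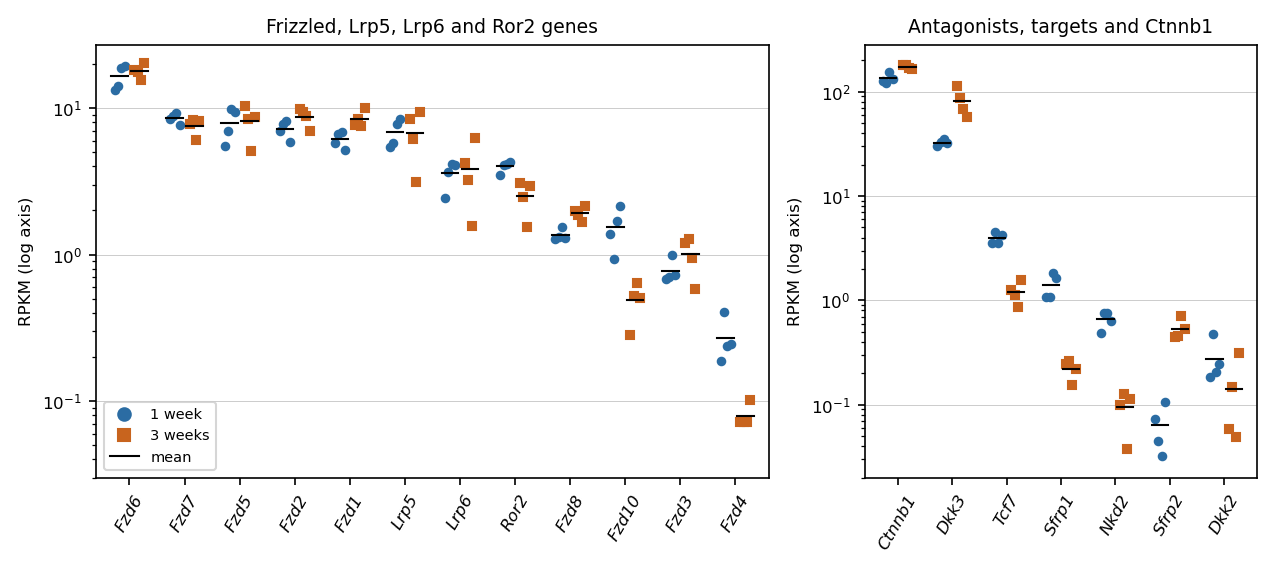
RPKM (vertical axes, log scale) in each sample of the 12 tested receptor genes (left) and of the tested antagonists, Nkd2, Tcf7 and Ctnnb1 (right), circles for 1 week, squares for 3 weeks, lines for means. Fzd6, Fzd7, Fzd5 and Fzd2 overlap between the times, whereas Fzd1, Dkk3, Tcf7, Sfrp1, Nkd2 and Sfrp2 do not.

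Of the 9 secreted antagonists 4 were tested, and Dkk3 was by far the most abundant. Dkk3 (chr7:112116017-112159057) is a divergent Dkk that does not bind Lrp5 or Lrp6 as Dkk1, Dkk2 and Dkk4 do. It was read at 30.1, 33.0, 34.9 and 32.0 RPKM at 1 week and at 113, 86.6, 67.9 and 57.01 RPKM at 3 weeks. The samples of 3 weeks were all higher, though they differed among themselves, and the log2 fold change was 1.48 ± 0.20 (SE, edgeR adjusted p = 0.0009), or 2.79-fold. Dkk3 alone made up 93.7% ± 1.09 and 98.7% ± 0.515 (SD, n = 4) of the summed RPKM of the antagonists. The sum was 31.8 to 37.4 RPKM at 1 week and 58.1 to 113 RPKM at 3 weeks.

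Sfrp1 and Sfrp2, which bind Wnts through a frizzled-like domain, changed in opposite directions. Sfrp1 (chr8:23411502-23449632) was read at 1.08, 1.08, 1.82 and 1.62 RPKM at 1 week and at 0.245, 0.264, 0.153 and 0.218 RPKM at 3 weeks. Its log2 fold change was -2.50 ± 0.27 (SE, edgeR adjusted p = 0.000433), a 5.65-fold fall. Sfrp2 (chr3:83766321-83774316) had 3, 2, 1 and 4 reads at 1 week and 18, 16, 25 and 17 at 3 weeks, and passed the filter on low counts through the latter alone. Its log2 fold change was 3.16 ± 0.42 (SE, edgeR adjusted p = 0.000909). In terms of reads it was 8.23 times as frequent at 3 weeks, with an exact 95% counting interval of 4.24 to 17.9. At 1 week the higher gene was Sfrp1 in each sample, and at 3 weeks it was Sfrp2 in each sample, on the RPKM scale, although neither came near the level of Dkk3. Sfrp2 overlaps Gm26771 on the other strand.

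Dkk2 did not pass (log2 fold change -0.85, edgeR adjusted p = 0.282), with 13, 36, 11 and 16 reads at 1 week and 4, 9, 3 and 17 at 3 weeks. Replicate 4 of 3 weeks was the one that overlapped with 1 week, and without it the log2 fold change was -1.53 (adjusted p = 0.0495). Dkkl1, a Dkk3 relative best known from testis, had 12, 9, 10 and 19 reads and then 2, 1, 3 and 0, and was not tested. Dkk1 had 1 read in 1 sample of 3 weeks, Sfrp4 and Sfrp5 had 3 and 2 reads in 1 sample of 3 weeks each, and Dkk4 had none. Dkk4 could have been missed below 0.111 to 0.159 RPKM, the value of 3 reads.

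Ctnnb1 (chr9:120929216-120960507), which codes for beta-catenin, was the most abundant of the 51 genes and rose slightly. It was read at 127, 122, 155 and 133 RPKM at 1 week and at 179, 180, 170 and 165 RPKM at 3 weeks, and the groups did not overlap. The log2 fold change was 0.54 ± 0.14 (SE, edgeR adjusted p = 0.0152). The call was lost without replicate 2 of 1 week (adjusted p = 0.0525) and when 3 samples per time were paired by the numbers in the table names (0.145). Of its reads 42.5% mapped uniquely, and with these the log2 fold change was 0.47 (edgeR adjusted p = 0.017). Beta-catenin is also a part of adherens junctions, and its activity depends on the protein, which was not measured here.

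Nkd2 and Tcf7, the 2 tested genes of the group of targets and nuclear factors, both fell. Nkd2 (chr13:73818534-73847631), an inhibitor that binds dishevelled, had 45, 75, 52 and 54 reads at 1 week and 9, 10, 3 and 8 at 3 weeks. Its log2 fold change was -2.63 ± 0.34 (SE, edgeR adjusted p = 0.000718), a 6.21-fold fall. Nkd2 passed the filter on low counts through the 1 week samples alone. Tcf7 (chr11:52252371-52283014), which codes for the factor TCF1, was read at 3.58, 4.55, 3.58 and 4.25 RPKM at 1 week and at 1.25, 1.14, 0.858 and 1.58 RPKM at 3 weeks. The log2 fold change of Tcf7 was -1.57 ± 0.20 (SE, edgeR adjusted p = 0.000679). In both genes each sample of 3 weeks was far below each sample of 1 week. The Tcf7 reads need care, since 18.4% mapped uniquely and the gene overlaps Gm26551 on the same strand and A630014C17Rik on the other. With unique reads the log2 fold change was -1.92 (edgeR adjusted p = 0.00999).

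Axin2, a widely used target of beta-catenin, was hardly expressed. It had 7, 10, 17 and 27 reads at 1 week and 4, 2, 3 and 19 at 3 weeks, or 0.162 ± 0.101 and 0.0823 ± 0.102 RPKM (SD, n = 4), and the times overlapped through replicate 4 of 3 weeks. Nkd1 had 4, 21, 5 and 9 reads at 1 week and 5, 5, 4 and 5 at 3 weeks. Lef1, a nuclear partner of beta-catenin in the hair follicle, had at most 5 reads in a sample at either time. None of these 3 genes was tested. In all, 22 of the 51 genes were not tested, of which 3 had no reads, 12 had at most 9 reads in any sample, and 7 (Axin2, Dkkl1, Fzd9, Nkd1, Rspo4, Wnt3a and Wnt6) reached 10 or more. Among these 22, Wnt6 and Dkkl1 did not overlap between the times, both lower at 3 weeks, against 5.35% of all untested genes with reads. Without the filter on low counts, Wnt6, Dkkl1 and Wnt3a were lower with adjusted p-values of 0.0353, 0.0144 and 0.0485.

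**Figure D4:**
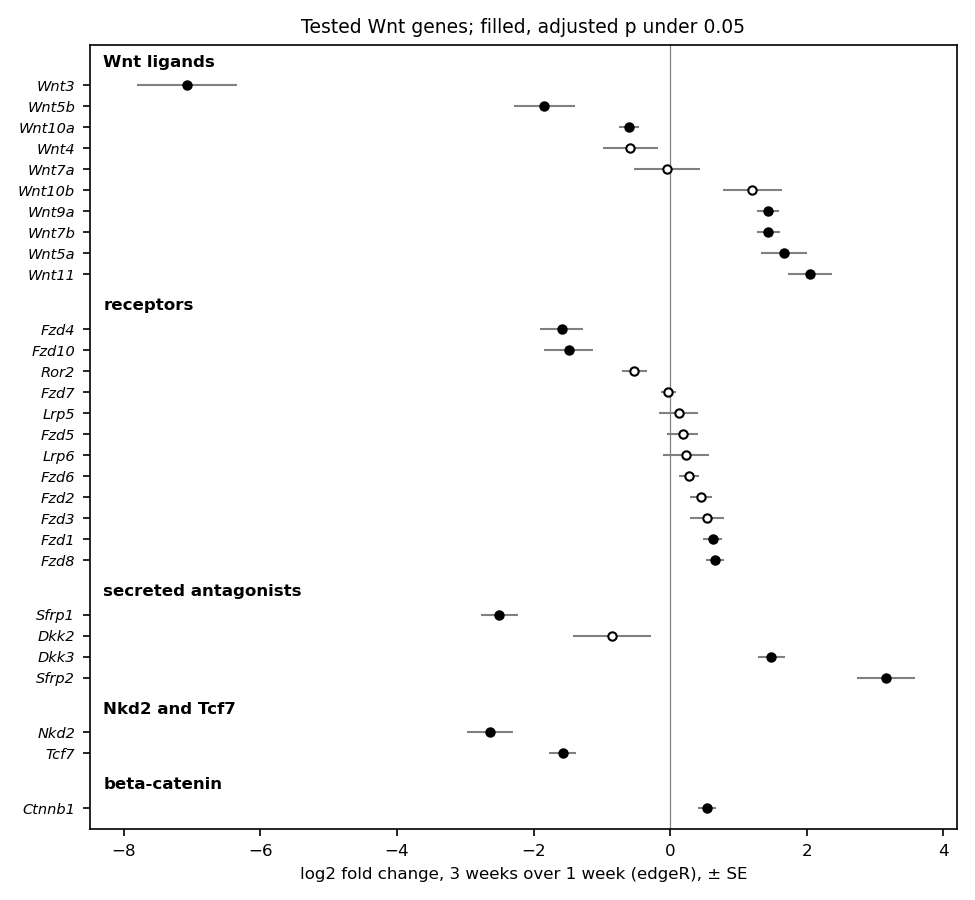
Log2 fold change (horizontal axis, 3 weeks over 1 week, with SE) of the 29 tested Wnt genes by role, filled where the adjusted p was under 0.05. Rises and falls stand side by side among ligands and antagonists, and the value of Wnt3 comes from a group with 1 read and has no fixed size.

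The changes were set against the other genes of the pathway, from a list of 88 names of which 85 were in the tables and 69 were tested. Of these, 18 passed, 8 higher and 10 lower, against the 32.8% of all genes. The median log2 fold change was 0.03. On the log2(RPKM + 0.1) and log2(RPKM + 1) scales, without correction for library composition, 35.3% and 26.7% of the calls were higher instead of 44.4%, and the median over all genes tested moved to -0.16 and -0.10.

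Both genes of Wnt secretion changed, in opposite directions. Porcn, the enzyme that attaches the lipid to Wnts, fell from 21.3 ± 2.95 to 8.71 ± 3.28 RPKM (SD, n = 4; log2 fold change -1.12, edgeR adjusted p = 0.0198). Wls, the carrier that takes Wnts to the cell surface, rose from 19.8 ± 1.84 to 25.1 ± 3.49 RPKM (0.51, adjusted p = 0.0278). Among the R-spondin receptors and their ligases Lgr6 rose from 0.151 ± 0.154 to 2.81 ± 1.63 RPKM (log2 fold change 4.45 ± 0.81 SE, edgeR adjusted p = 0.00348). Its SD at 1 week was as large as its mean, so the size of this rise is uncertain. The other 3 tested genes of that group did not pass.

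Of 6 tested further extracellular antagonists 3 fell and none rose, against 17.0% lower and 15.7% higher among all genes tested. Trabd2b, a protease that inactivates Wnts, had a log2 fold change of -1.77 (edgeR adjusted p = 0.00632), Igfbp4, which also binds insulin-like growth factors, of -1.11 (0.0343) and Tpbg of -0.86 (0.0048). In the group of dishevelled and the destruction complex, 14 of 17 tested genes did not pass, while 32.8% of all genes tested passed. Csnk1a1, the kinase that primes beta-catenin for breakdown, fell by 0.51 on the log2 scale (edgeR adjusted p = 0.0215), Csnk1e rose by 0.59 (0.0113), and Apc2 rose by 1.57 from a low level (0.0151). Of 14 tested nuclear partners, the co-repressor Tle1 fell by 0.86 (edgeR adjusted p = 0.00521) and its short relative Aes rose by 0.69 (0.00205).

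Among 16 tested genes of planar polarity and other routes without beta-catenin, Vangl2 fell by 0.63 on the log2 scale (edgeR adjusted p = 0.00781) and Scrib by 0.54 (0.0276). Nfatc2 had a log2 fold change of 2.33 with at most 19 reads in a sample (edgeR adjusted p = 0.00461). Its means were 0.0178 and 0.0813 RPKM at 1 and 3 weeks, and it passed the filter on low counts through the 3 weeks samples alone. Of 10 tested genes that have been reported as targets of beta-catenin, 4 passed, against 32.8% of all genes tested. Ccnd1, cyclin D1, fell from 259 ± 21.1 to 86.1 ± 18.5 RPKM (SD, n = 4; edgeR adjusted p = 0.000712) and Myc from 54.3 ± 6.39 to 23.8 ± 9.99 RPKM (0.0129). Id2 and Msx2 rose, by 2.05 and 0.67 on the log2 scale (edgeR adjusted p = 0.00213 and 0.0286). Each of these genes is known to respond to other signals as well.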

How the data were processed

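Poly(A) RNA of 8 samples (4 per time) was sequenced, and the authors deposited a table of genes for each sample. The authors trimmed adapters and aligned the reads to GRCm38 in the CLC Genomics Workbench. The deposited exon reads are raw counts, and the RPKM values deposited by the authors equal these counts divided by exon length and mapped reads; they were written with decimal commas and read as numbers. Use of the strand is not given in the sources used here.

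Counts of all genes were filtered (filterByExpr), TMM-normalized and tested with edgeR 4.0.16 in R 4.3.3 by the quasi-likelihood test, with Benjamini-Hochberg adjustment over 12590 genes and no pairing, since the study used unpaired tests. Standard errors came from the F statistics. The self-test used simulated data. Alternatives used DESeq2 1.42.0, limma 3.58.1, other filters, unique reads, each sample left out, and blocks. Leaving out replicates 3 and 4 of 3 weeks together was added after seeing the data. RPKM ratios are not TMM-corrected and can differ from fold changes. Read ratios have exact 95% binomial intervals, for counting error only. Figures were drawn with Python 3.11.15 and matplotlib 3.10.9.

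Named genes are all 51 genes, those of the pathway list that passed the test, and some of the cell type markers. The gene rule and all lists were chosen with earlier results of these data known. Promoters are RefSeq sequences on GRCm38.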

Additional observations from a re-analysis of the deposited data

Results flagged for a closer look

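Within a group of 4 samples, 1 value stood far from the other 3 in 5 of the 58 groups examined (29 genes, 2 times), by Dixon's criterion, which chance meets in about 1 of 20 groups. Fzd3 and Fzd8 were highest in replicate 3 of 1 week, with 0.996 RPKM against 0.722 or less for Fzd3 and 1.54 RPKM against 1.31 or less for Fzd8. Replicate 4 of 3 weeks was highest for Fzd4, with 0.101 RPKM (10 reads) against 0.0725 or less, and for Wnt5b, with 0.308 RPKM (12 reads) against 0.121 or less. The single Wnt3 read of 3 weeks, in replicate 3, gave 0.0198 RPKM against 0 in the others. Any single read among samples without reads meets this criterion, so the rate of 1 in 20 does not apply to it.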

How the results depend on the processing

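Between 17 and 23 Wnt genes were called with any 1 sample left out, against 17 with all, and the 23 came without replicate 4 of 3 weeks. DESeq2 called 20, upper-quartile normalization 18, unique reads 17, limma on log2(RPKM + 0.1) 18 and on log2(RPKM + 1) 19, no filter 20 of 48, at least 10 reads in every sample 12 of 22, and replicates 3 and 4 of 3 weeks both left out 21. The pathway list gave 12 to 22 calls throughout, against 18. With the replicate number of the labels as a block, 17 Wnt genes and 12 pathway genes were called. The study states that batches of KCs were shared between the times, but not which samples share one. The replicate numbers did not pair the samples in the data: the deviations of equal numbers correlated at -0.33, -0.12, -0.24 and 0.31, and 1 of 4 samples matched its own number best. For equal numbers in the table names these correlations were -0.33, 0.20 and 0.31, so neither pairing was clear in the data. The block of replicate numbers moved Ctnnb1 above the threshold (edgeR adjusted p = 0.064) and Wnt10b below it (0.0449). Pairing 3 samples per time by the numbers in the table names gave 13 calls each, and 12 of the 17 genes remained called. The 4 genes below, which never passed, changed sign. Fzd7 (-0.03) was 0.0078 with this pairing and 0.031 without replicates 3 and 4 of 3 weeks, and -0.076 to 0.0075 with any 1 sample left out. Lrp5 (0.12) and Lrp6 (0.23) were -0.10 and -0.036 on log2(RPKM + 0.1), -0.079 and -0.0055 on log2(RPKM + 1), and -0.053 to 0.32 and -0.090 to 0.45 with 1 sample left out. Wnt7a (-0.05) was 0.48 without both replicates and -0.36 to 0.27 with 1 left out. The cause of these shifts was not tested. Genes below about 10 reads are limited by depth.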
